A study of Mus musculus with 20 samples.

Results

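The receptors and ligands of the colony stimulating factors were followed in macrophages of the cranial dura mater (dCAMs) that had refilled their niche after depletion. The group comprised 8 of the 33243 genes in the count table, taken by symbol and not by their values: the receptor genes Csf1r, Csf2ra, Csf2rb, Csf2rb2 and Csf3r and the ligand genes Csf1, Il34 and Csf3. All 8 were among the 16632 genes that passed the filter on low counts. The cells came from adult Ccr2CreERT2 R26tdT mice of both sexes, with the genotype Ccr2creERT2/+ R26tdT/tdT in every group. All 10 mice had received the CSF1R inhibitor BLZ945 by gavage at 200 mg per kg for 7 days, and no group without it was analysed here. All also received tamoxifen, 2 mg per day, on the final day of gavage and again 2 and 4 days later. At 8 weeks after gavage, 5 mice were given lipopolysaccharide (LPS) at 2.5 mg per kg and 5 were given PBS (CTL), and the dura was taken 12 h later. From each mouse the CD45int CD11b+ CD206int-high gate was split into tdTomato-positive (tdT+) and tdTomato-negative (tdT−) cells, giving 20 libraries in 4 groups of 5. The Ccr2 promoter drives the tamoxifen-dependent Cre in this model, so tdT records Ccr2 expression at the time of tamoxifen and cannot mark a cell whose Ccr2 was off, or whose locus was missed, at that time. Values below are listed in the order of mouse 174, 175, 177, 178 and 179 for CTL and of mouse 54, 56, 59, 60 and 61 for LPS.

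Colony stimulating factors govern the production, survival and activation of myeloid cells. CSF1 and IL-34 share 1 receptor, the tyrosine kinase CSF1R, on which most tissue macrophages depend and which BLZ945 blocks. The GM-CSF receptor pairs a ligand-specific alpha chain with a beta chain that it shares with the receptors for IL-3 and IL-5, and the mouse carries an additional beta chain, Csf2rb2, that serves IL-3. G-CSF, the product of Csf3, acts through the receptor encoded by Csf3r and is best known for driving the output of neutrophils.

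The libraries held 6017650 to 18925908 counts. The LPS libraries were the deeper ones, with 12073566 to 18925908 counts against 6017650 to 12208203 in CTL libraries, and depth and treatment cannot be told apart. The number of genes above 3 counts averaged 8570 in tdT− CTL and 10836 in tdT+ CTL libraries, and under LPS it averaged 12245 and 12406. All 12 markers of border macrophages and of the sort gate were above 3 counts in every library, among them Mrc1 (CD206), Adgre1 and C1qa. Of the tdT− CTL libraries, 2 stood apart. That of mouse 179 carried 3993 CPM of summed fibroblast markers, against 10.9 to 876 CPM in the other tdT− CTL libraries, and that of mouse 174 carried 556 CPM of dendritic cell markers, including 348 CPM of Flt3. These 2 libraries also had the fewest genes above 3 counts (7458 and 7376). Dendritic cell markers also summed to 230 to 634 CPM in tdT− LPS libraries, against 4.62 to 18.3 CPM in tdT+ LPS libraries. Among them Ccr7 averaged 401 and 7.21 CPM, while Flt3 averaged 8.44 CPM and Zbtb46 7.99 CPM in tdT− LPS libraries. In tdT− CTL libraries Flt3 averaged 86.8 ± 147 CPM and Zbtb46 57.8 ± 80.7 CPM (SD). Xcr1 and Clec9a stayed at or under 0.0813 and 0.407 CPM in tdT− LPS libraries. In bulk RNA, fewer cells of a type and less RNA per cell cannot be told apart. Levels are CPM, counts divided by the TMM-scaled library size and multiplied by 1e+06, and a gene was said to change when edgeR's quasi-likelihood test gave a Benjamini-Hochberg adjusted p under 0.05 with an absolute log2 fold change over 1.

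**Figure D1:**
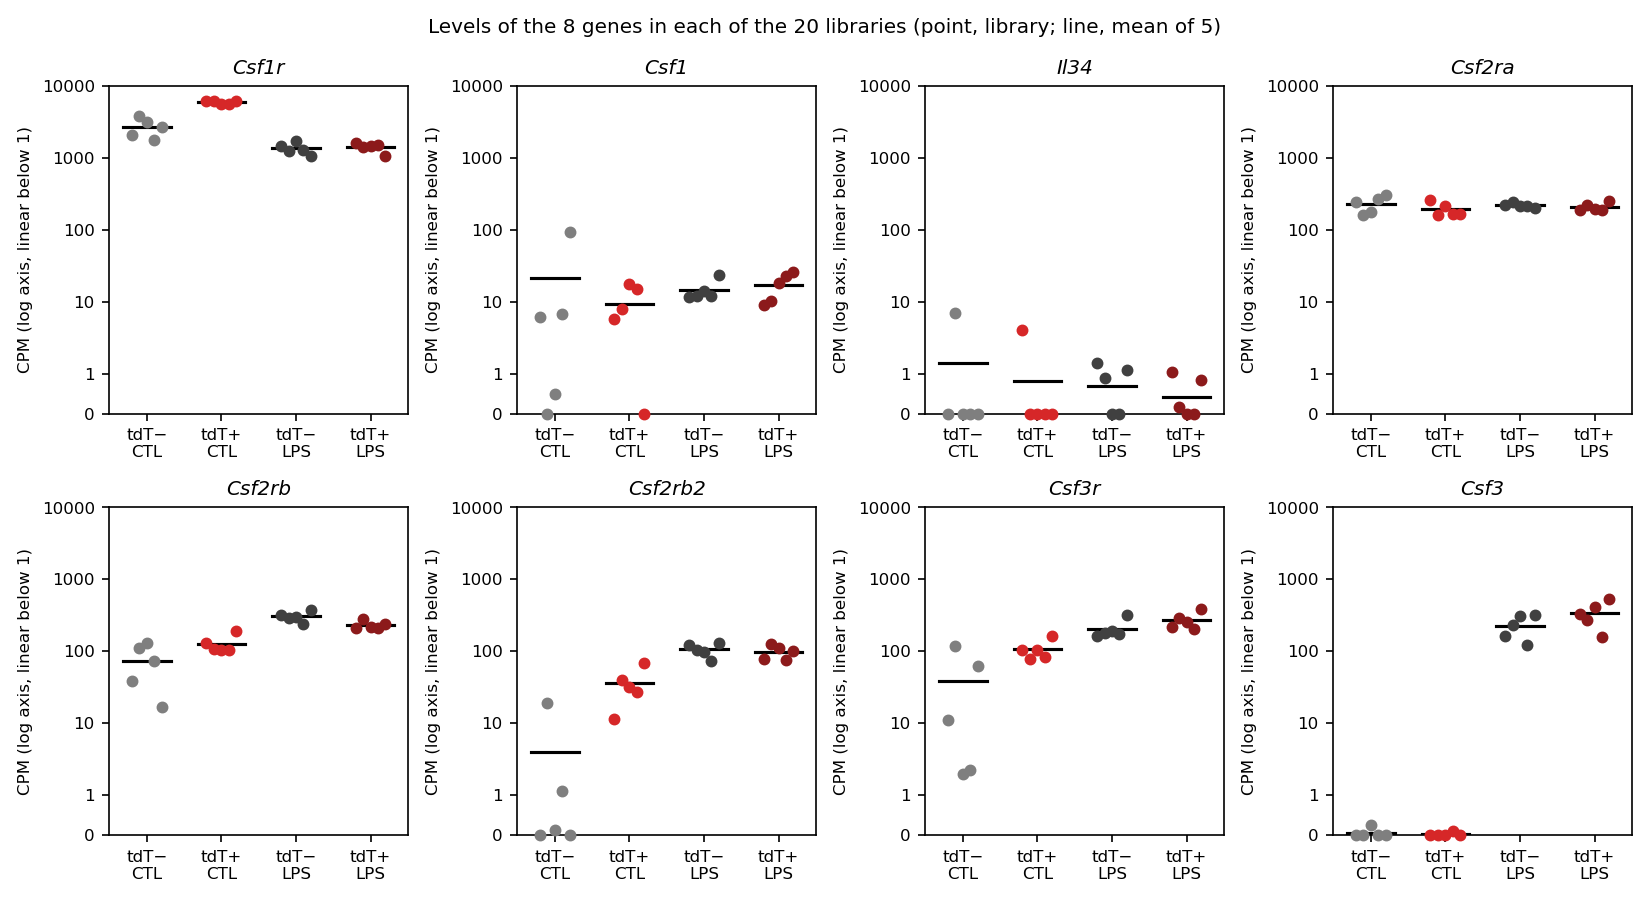
Levels of the 8 genes in CPM (vertical axis, logarithmic above 1 and linear below) in the 4 groups, with 1 point per library and a line at the mean of 5. Csf1r lies between 5656 and 6283 CPM in the tdT+ CTL libraries and at or below 1717 CPM in all LPS libraries, Csf3 is at 3 counts or fewer in all CTL libraries, and Csf2ra stays between 163 and 308 CPM throughout.

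Under LPS, Csf1r fell in tdT+ dCAMs, Csf3 rose from near 0 in both populations, and the receptor genes Csf2rb, Csf2rb2 and Csf3r rose in tdT− dCAMs. In tdT− dCAMs 4 of the 8 genes changed, all of them higher (Csf2rb, Csf2rb2, Csf3r and Csf3), where 11.5% of all genes tested changed, 7.20% higher and 4.27% lower. In tdT+ dCAMs 2 of 8 changed, Csf1r lower and Csf3 higher, where 5.89% of all genes changed, 3.37% higher and 2.52% lower. The median log2 fold change of the 8 genes was 0.98 in tdT− and 0.88 in tdT+ dCAMs, against 0.02 and 0.0084 over all genes tested. In both populations the values of 5 genes (Csf1r, Csf2rb, Csf2rb2, Csf3r and Csf3) were fully apart between LPS and CTL libraries, Csf1r lower and the other 4 higher. That held for 12.6% of all genes in tdT− dCAMs (9.32% higher, 3.31% lower) and for 17.8% in tdT+ dCAMs (10.6% higher, 7.19% lower). Between the populations of LPS mice 0 of the 8 genes changed, where 0.0301% of all genes did. None of the 8 had an unadjusted p under 0.05 in that comparison (0 of 8), and DESeq2 called 0 as well.

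**Figure D2:**
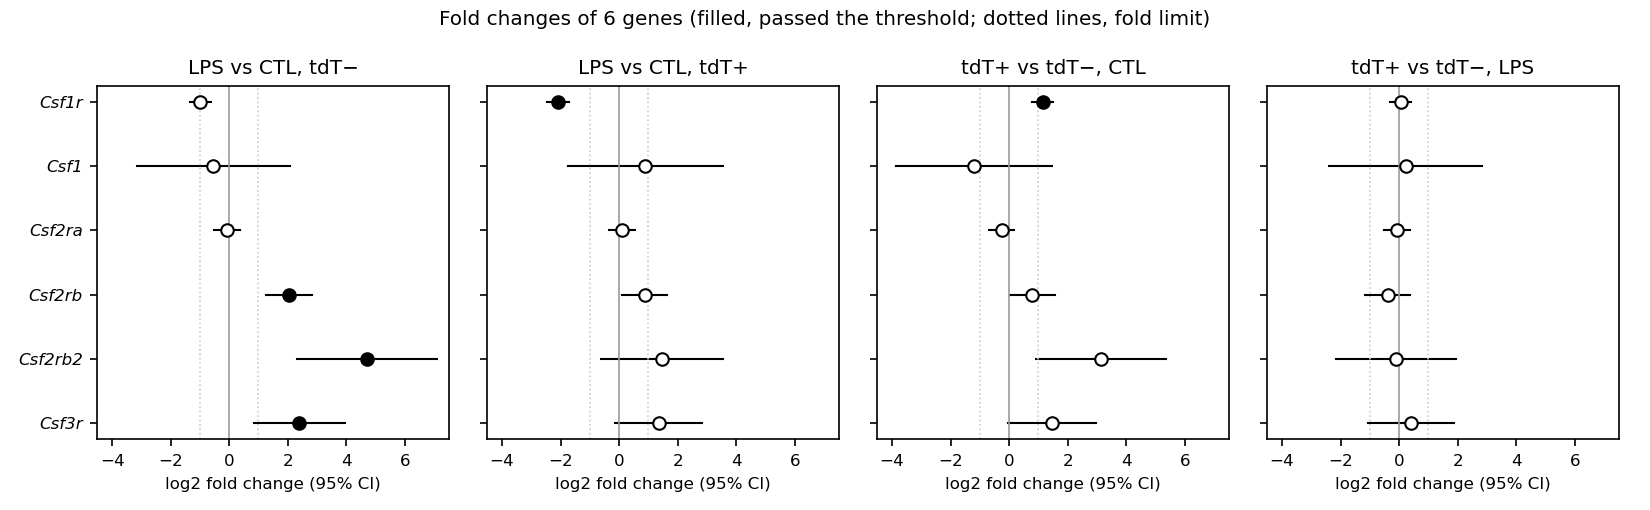
Log2 fold changes with 95% confidence intervals (horizontal axis) of 6 of the genes in 4 comparisons. Filled points passed the threshold and dotted lines mark the fold limit, and the intervals of Csf2ra are narrow and include 0 in all 4 panels. Csf3 and Il34 are not drawn because most or all CTL libraries lay at or under 3 counts.

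Csf1r, the receptor through which CSF1 and IL-34 keep macrophages alive, lies on chromosome 18. Per kilobase of transcript it had the highest mean of the 8 genes in every group. The means per kb were 469 CPM (tdT−) and 1038 CPM (tdT+) in CTL mice and 236 CPM (tdT−) and 245 CPM (tdT+) in LPS mice. Under LPS the libraries of Csf3 overlapped those of Csf1r, with means per kb of 162 ± 60.8 (tdT−) and 242 ± 100.5 CPM (tdT+, SD). Csf1r measured 2058, 3799, 3187, 1796 and 2704 CPM in tdT− CTL and 6175, 6283, 5656, 5657 and 6189 CPM in tdT+ CTL libraries. The tdT+ library was the higher one in all 5 CTL mice, and the lowest tdT+ value lay above the highest tdT− value. Under LPS it measured 1481, 1250.4, 1717, 1298 and 1063 CPM in tdT− and 1623, 1399.5, 1479, 1521 and 1056 CPM in tdT+ libraries. All 10 LPS libraries were below all 10 CTL libraries, and the populations of LPS mice lay in the same range.

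In tdT+ dCAMs Csf1r fell under LPS, from 5992 ± 309 to 1416 ± 217 CPM (SD, n = 5), which is −2.08 ± 0.18 (SE) on the log2 scale (adjusted p = 5.85e-08). In tdT− dCAMs it averaged 2709 ± 818 CPM in CTL and 1362 ± 248 CPM in LPS libraries, and its log2 fold change of −0.99 ± 0.17 (adjusted p = 0.000454) stayed just inside the fold limit. It passed that limit in 9 of 19 alternatives, which reached −1.12, among them DESeq2 (−1.02) and the fits without mouse 174 (−1.10), mouse 178 (−1.09) or mouse 59 (−1.09), and with mouse as a replicate block in voom its adjusted p was 0.221. In CTL mice the level was higher in tdT+ than in tdT− dCAMs by 1.15 ± 0.17 on the log2 scale (adjusted p = 0.000464), the only 1 of the 8 genes that changed between the populations, where 4.28% of all genes did, 3.01% of them higher in tdT+ and 1.27% lower. Blocking by mouse kept this difference, at 1.16 in voom (adjusted p = 0.0395) and 1.20 in edgeR (adjusted p = 0.00346). It was also kept without the tdT− CTL libraries of mice 174 and 179 (1.04, adjusted p = 0.00385). Other tdT− CTL libraries also carried such markers, that of mouse 175 with 876 CPM of fibroblast and 303 CPM of dendritic cell markers and that of mouse 177 with 277 CPM of fibroblast and 181 CPM of neutrophil markers, and their part in the difference was not tested.

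In LPS mice the log2 fold change between the populations was 0.06 (95% interval −0.30 to 0.41, adjusted p = 1). The 12 markers of border macrophages and of the gate were also lower in sum under LPS. The sum was 52659 to 65332 CPM in tdT+ CTL and 20943 to 24992 CPM in tdT+ LPS libraries. In tdT− libraries it was 31097 to 62935 CPM in CTL and 16089 to 22291 CPM under LPS. Apoe, Lyz2 and C1qb were its largest parts, with means of 24421, 11909 and 6830 CPM in tdT+ CTL libraries. Under LPS 5 of the 12 fell in tdT+ dCAMs and 6 in tdT− dCAMs, among them in both Mrc1 (−1.40 in tdT+ and −1.14 in tdT− dCAMs), C1qa (−1.29 and −1.32), Apoe (−1.78 and −1.61) and Lyz2 (−2.30 and −2.56 on the log2 scale), while Itgam (CD11b) rose in both (2.48 and 2.67). Ptprc, Cd68 and Pf4 did not pass in either population. Between the populations of CTL mice 0 of the 12 passed both limits by edgeR's test, and 2 had an unadjusted p under 0.05. These were Mrc1 (0.98, adjusted p = 0.0193) and Adgre1 (0.71, adjusted p = 0.0492), both higher in tdT+ dCAMs. They passed the limit on adjusted p and stayed inside the fold limit. The part of the 12 markers in the Csf1r values was not tested.

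The LPS effect on Csf1r differed between the populations, with a difference (tdT+ minus tdT−) of −1.09 ± 0.24 on the log2 scale (adjusted p = 0.0234). By construction it is the log2 fold change between the populations in LPS mice (0.06) minus that in CTL mice (1.15), so it followed the CTL comparison. Csf1r was the only 1 of the 8 genes whose LPS effect differed, where that of 1.26% of all genes did, 1.17% in the same direction and 0.0902% in the other. This call was not stable to single mice. It was lost without CTL mouse 174 (−0.997, adjusted p = 0.0557) and without any 1 of the 5 LPS mice (−1.01 to −1.17, adjusted p from 0.0536 to 0.0971). It was also lost with mouse as a block in voom (−1.27, adjusted p = 0.337), but not with mouse as a factor in edgeR (−1.14, adjusted p = 0.0401). Leaving aside the tdT− CTL libraries of mice 174 and 179 gave −0.99 (adjusted p = 0.0525).

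**Figure D3:**
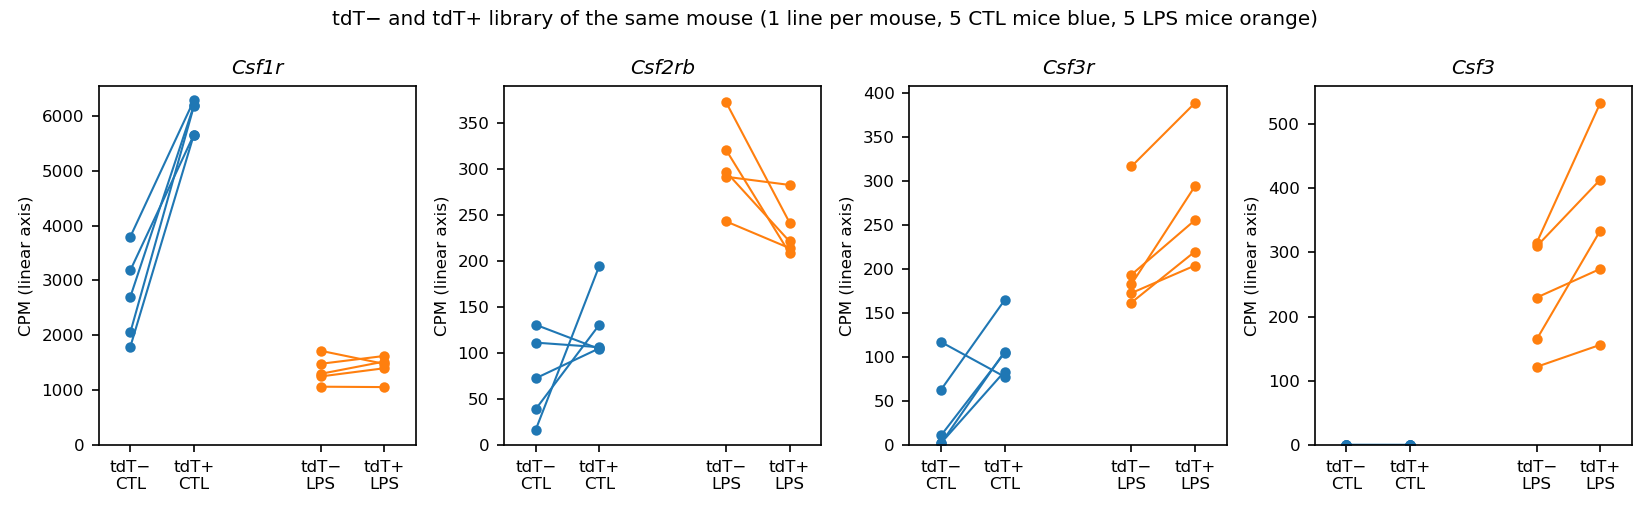
CPM (vertical axis, linear) of Csf1r, Csf2rb, Csf3r and Csf3 in the tdT− and the tdT+ library of each mouse, joined by a line, with 5 CTL mice in blue and 5 LPS mice in orange. Csf1r is higher in the tdT+ library of all 5 CTL mice, by 1.65-fold to 3.15-fold, and Csf3 in that of all 5 LPS mice, by 1.19-fold to 2.03-fold, a difference that did not pass the test.

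Csf2ra, the ligand-binding alpha chain of the GM-CSF receptor (chr19:61223957-61228429, minus strand, protein coding, GRCm38), had the most even group means of the receptor genes, from 194 ± 44.6 to 232 ± 61.0 CPM (SD, n = 5). It measured 240.2, 163, 178, 268 and 308 CPM in tdT− CTL and 263, 163, 215, 165 and 164 CPM in tdT+ CTL libraries. The LPS libraries held 222, 246, 215, 213 and 198 CPM in tdT− and 191, 219, 195, 189.7 and 248 CPM in tdT+ dCAMs. The 4 groups overlapped throughout. The log2 fold change under LPS was −0.08 in tdT− (95% interval −0.52 to 0.35, adjusted p = 0.843) and 0.10 in tdT+ dCAMs (−0.33 to 0.54, adjusted p = 0.908). Changes beyond the fold limit lay outside both intervals. Between the populations the log2 fold change was −0.26 in CTL (adjusted p = 0.520) and −0.07 in LPS mice (95% interval −0.51 to 0.37, adjusted p = 1).

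Csf2rb encodes the common beta chain, the signalling subunit of the receptors for GM-CSF, IL-3 and IL-5 (chr15:78325752-78353847, plus strand, protein coding). It measured 39.0, 111, 131, 72.5 and 16.6 CPM in tdT− CTL and 130.5, 106, 104, 105 and 194 CPM in tdT+ CTL libraries. Under LPS it measured 320.4, 291, 297, 243 and 372 CPM in tdT− and 208, 282, 221, 214 and 242 CPM in tdT+ libraries. Every LPS library lay above every CTL library, and the CTL values of tdT− dCAMs were the most scattered, with mouse 179 lowest. In tdT− dCAMs Csf2rb rose under LPS by 2.04 ± 0.38 on the log2 scale (adjusted p = 0.00102), with means of 74.0 ± 47.7 CPM in CTL and 305 ± 47.1 CPM in LPS libraries. In tdT+ dCAMs it averaged 128 ± 38.6 CPM in CTL and 233 ± 30.2 CPM in LPS libraries (0.87 ± 0.37, adjusted p = 0.199), and of the 20 alternatives tried only leaving out CTL mouse 179 brought it past both limits (1.07, adjusted p = 0.0198). In CTL mice the log2 fold change between the populations was 0.79 ± 0.37 (adjusted p = 0.203), with the tdT+ library higher in 3 of 5 mice. In all 5 LPS mice the tdT+ library held less than the tdT− library, at ratios of 0.649 to 0.969, but the test gave a log2 fold change of −0.38 (95% interval −1.15 to 0.39, adjusted p = 1). The tdT− LPS libraries also held 230 to 634 CPM of dendritic cell markers, of which Ccr7 averaged 401 CPM and Flt3 and Zbtb46 8.44 and 7.99 CPM. The part of these markers in the levels of Csf2rb and Csf2rb2 was not tested. Of the 8 genes, Csf2rb was the 1 that was lower in tdT+ libraries of all 5 LPS mice, while Csf3r and Csf3 were higher in all 5, where 9.90% of all genes had 1 sign in all 5 (5.19% higher, 4.71% lower). In CTL mice Csf1r and Csf2rb2 were higher in tdT+ libraries of all 5, where 9.46% of all genes had 1 sign (5.85% higher, 3.61% lower).

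Csf2rb2, the beta chain that binds IL-3 alone (chr15:78282507-78305721, minus strand, protein coding), was nearly absent from most tdT− CTL libraries. The tdT− CTL libraries held 0, 172, 1, 10 and 0 counts, which is 0, 18.9, 0.123, 1.13 and 0 CPM. The tdT+ CTL libraries held 11.4, 39.5, 32.1, 27.1 and 68.9 CPM. Under LPS the level was 124, 103, 98.7, 73.7 and 132 CPM in tdT− and 78.6, 127, 109.6, 75.8 and 102 CPM in tdT+ libraries. Only mouse 175 had a clear signal among the tdT− CTL libraries, and all LPS libraries exceeded all CTL libraries. In tdT− dCAMs Csf2rb2 rose by 4.71 ± 1.15 on the log2 scale (adjusted p = 0.00866), with 3 of the 5 CTL libraries at or under 3 counts, and without mouse 175 the fitted value was 8.40. This call was lost when edgeR was fitted to the 10 tdT− libraries alone (4.71, adjusted p = 0.112). In tdT+ dCAMs the mean went from 35.8 ± 21.2 to 98.6 ± 21.7 CPM (log2 fold change 1.46, 95% interval −0.62 to 3.54, adjusted p = 0.492).

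In the CTL mice Csf2rb2 was higher in the tdT+ than in the tdT− library of all 5 mice, yet the difference did not pass the test (3.14 ± 1.07, adjusted p = 0.0965). It passed with mouse as a block, at 6.31 in voom (adjusted p = 0.000375) and 6.10 in edgeR (adjusted p = 0.0276), and without mouse 175 (6.85, adjusted p = 9.72e-05). In LPS mice, where neither population was consistently higher, the log2 fold change was −0.11 (adjusted p = 1). The difference of the LPS effects followed the CTL comparison, with −3.25 ± 1.43 (adjusted p = 0.315), −6.42 with the block in voom (adjusted p = 0.00172) and −6.93 without mouse 175 (adjusted p = 0.000594). The tdT− CTL libraries with 0 counts of Csf2rb2 (mice 174 and 179) were also the 2 with the fewest genes above 3 counts. All 5 tdT− CTL libraries had fewer such genes, 7376 to 9807, than any tdT+ CTL library (10390 to 11572) or LPS library (at least 11682). The part of that in the CTL difference, and in the rises of Csf2rb, Csf2rb2 and Csf3r in tdT− dCAMs, was not tested. The same holds for every other comparison with the tdT− CTL libraries, among them those of Pik3r1 and Sdc1.

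Csf2rb and Csf2rb2 are near-identical neighbours, so part of their counts could have been assigned to either gene or to none. Their coding sequences, 2688 and 2634 bases long, were identical at 95.35% of 2626 aligned bases, with a longest identical run of 242 bases. Of all windows of 50 bases, 18.9% of the Csf2rb and 19.0% of the Csf2rb2 transcript occurred in the other transcript, and of windows of 100 bases 7.16% and 7.20%. The stretch below, coding bases 2008 to 2157 of GRCm38 (chr15:78348502-78348651, plus strand, for Csf2rb and chr15:78284797-78284946, minus strand, for Csf2rb2), is shown because it runs from a divergent part into that identical run. Capitals mark the 5 bases that differ.
Csf2rb: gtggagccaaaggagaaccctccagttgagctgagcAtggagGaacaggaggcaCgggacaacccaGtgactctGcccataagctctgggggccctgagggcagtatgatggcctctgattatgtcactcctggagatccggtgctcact
Csf2rb2: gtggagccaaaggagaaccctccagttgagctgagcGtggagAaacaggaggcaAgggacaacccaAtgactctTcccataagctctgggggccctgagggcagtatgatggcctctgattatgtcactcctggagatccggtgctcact
After the last capital in each line no base tells the genes apart within the stretch. Csf2rb2 made up 8.01 to 27.1% of the counts of both genes in tdT+ CTL libraries, and under LPS 23.3 to 27.9% in tdT− and 26.2 to 33.1% in tdT+ libraries. In tdT− CTL libraries it was 0, 14.5, 0.0939, 1.53 and 0%, so that the libraries with 257, 1064 and 127 counts of Csf2rb held 0 or 1 count of its neighbour. Summed into 1 gene, the pair rose under LPS in tdT− dCAMs (2.38 ± 0.40, adjusted p = 0.000309) and did not pass in tdT+ dCAMs (0.99 ± 0.38, adjusted p = 0.144), between the populations in CTL mice (1.07 ± 0.38, adjusted p = 0.110) or as a difference of the LPS effects (−1.38 ± 0.54, adjusted p = 0.244). The sum was not fitted with mouse as a block.

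Csf3r, the receptor for G-CSF (chr4:126024550-126044440, plus strand, protein coding), had higher means under LPS in both populations, as had the beta chains. It measured 10.9, 117, 1.96, 2.26 and 62.8 CPM in tdT− CTL and 104, 77.6, 106, 83.4 and 164 CPM in tdT+ CTL libraries. Under LPS it measured 162, 182, 193, 173 and 316 CPM in tdT− and 219.6, 294, 255, 204 and 388 CPM in tdT+ libraries. The tdT− CTL libraries were widely scattered, and within each population every LPS library lay above every CTL library. In tdT− dCAMs Csf3r rose by 2.40 ± 0.74 on the log2 scale (adjusted p = 0.0382), with means of 39.0 ± 50.4 CPM in CTL and 205 ± 63.1 CPM in LPS libraries. The call was lost without CTL mouse 174 (2.13, adjusted p = 0.0799), 177 (2.09, adjusted p = 0.0501) or 178 (2.05, adjusted p = 0.0643) and without any 1 of the LPS mice (2.19 to 2.45, adjusted p from 0.0653 to 0.0987). It was also lost when the 10 tdT− libraries were fitted alone (2.40, adjusted p = 0.174), with quality weights (3.89, adjusted p = 0.0545) and without the tdT− CTL libraries of mice 174 and 179 (2.32, adjusted p = 0.0763), while with the block in voom it was 3.91 (adjusted p = 0.00274). In tdT+ dCAMs it averaged 107 ± 34.4 CPM in CTL and 272 ± 73.6 CPM in LPS libraries (1.34 ± 0.72, adjusted p = 0.324). That change passed with mouse as a block in voom (1.35, adjusted p = 0.0249) and when the 10 tdT+ libraries were fitted alone (1.34, adjusted p = 0.00143).

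Between the populations, Csf3r was higher in tdT+ dCAMs of 4 of 5 CTL mice (1.46 ± 0.72, adjusted p = 0.227), and passed with the block in voom (3.03, adjusted p = 0.0328) and without mouse 175 (2.61, adjusted p = 0.0433), but not with mouse as a factor in edgeR (3.06, adjusted p = 0.0722). In LPS mice the tdT+ library was higher in all 5 mice, by 1.18-fold to 1.61-fold, and the test gave 0.41 (95% interval −1.07 to 1.88, adjusted p = 1). Because Csf3r is abundant in neutrophils, the neutrophil markers are given beside it. In CTL mice the 10 markers summed to 1.87 to 181 CPM in tdT− libraries, with 2 to 5 of the 10 above 3 counts, and to 0.733 to 31.1 CPM in tdT+ libraries, with 0 to 3 above. Under LPS they summed to 262 to 823 CPM (4 to 7 above) and to 244 to 571 CPM (3 to 5 above). S100a8 averaged 291 CPM in tdT− LPS and 309 CPM in tdT+ LPS libraries, Mmp8 averaged 98.0 and 103 CPM, and Retnlg reached 642 CPM in the tdT− library of mouse 54. Of the same list, Ly6g, Mpo and Elane stayed at or under 1.54, 0.903 and 0.123 CPM in all 20 libraries, and S100a9 at or under 2.18 CPM in all LPS libraries. Cxcr2 reached 7.65 CPM in tdT− LPS libraries, with 2 of 5 above 3 counts, and 0.165 CPM in tdT+ LPS libraries. Within the tdT− CTL group the 3 libraries with the least Csf3r (mice 174, 177 and 178) had the most neutrophil marker RNA, 101, 181 and 92.9 CPM against 1.87 and 4.97 CPM. In that group Retnlg alone reached 171 CPM and was above 3 counts in 2 of the 5 libraries. Mmp8 and Cxcr2 were above 3 counts in 0 of the 5. The part of the neutrophil markers in the LPS effect on Csf3r was not tested.

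**Figure D4:**
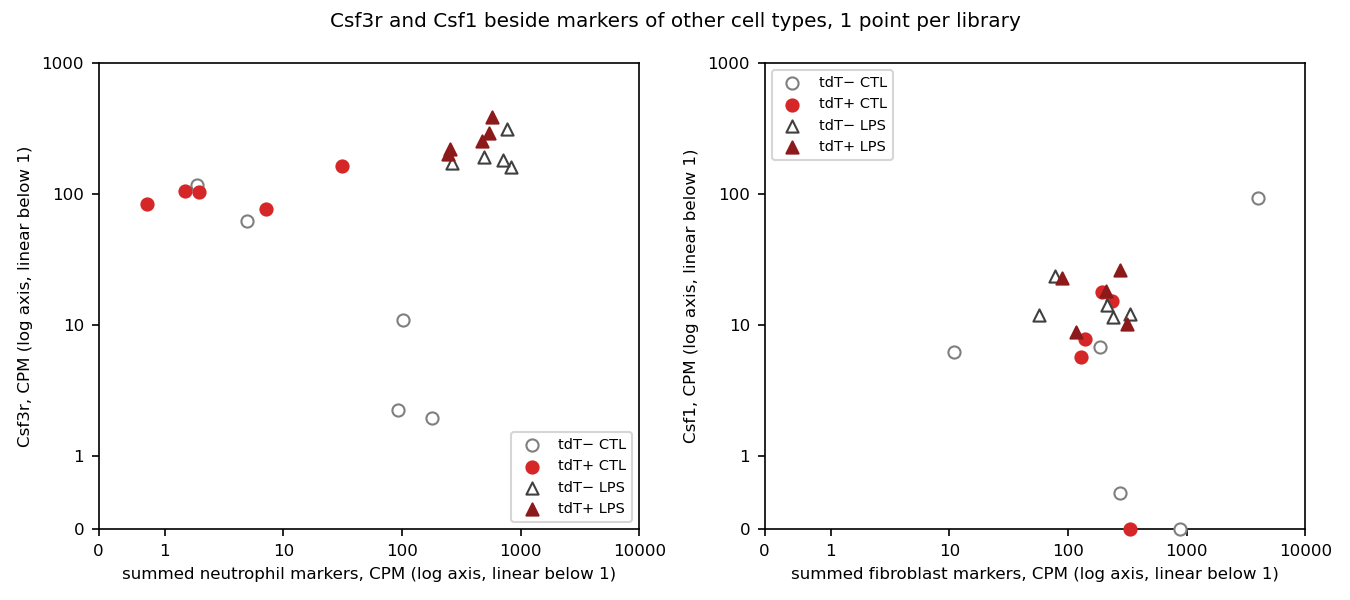
Csf3r against the summed neutrophil markers (left) and Csf1 against the summed fibroblast markers (right), all in CPM on axes that are logarithmic above 1 and linear below, with 1 point per library (circles CTL, triangles LPS, filled tdT+, open tdT−). The tdT+ CTL libraries hold 77.6 to 164 CPM of Csf3r with at most 31.1 CPM of neutrophil markers, and the library with the most Csf1, 93.6 CPM, is also that with the most fibroblast markers, 3993 CPM. Csf1 is at 0 CPM in the tdT− CTL library of mouse 175 and the tdT+ CTL library of mouse 179, with 876 and 336 CPM of fibroblast markers.

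Promoter sequence was at hand for 4 of the 8 genes, Csf1, Csf2ra, Csf2rb2 and Csf3r, from 250 bases before to 50 bases after the RefSeq start (GRCm38.p6). Csf1r, Il34, Csf2rb and Csf3 had no entry. The 3 receptor promoters are shown because Csf2rb2 and Csf3r were higher under LPS in tdT− dCAMs while Csf2ra stayed level. Capitals mark matches to a PU box (GAGGAA, the core bound by PU.1, the myeloid factor encoded by Spi1) or to a CRE (TGACGTCA), on either strand, so that a PU box on the opposite strand reads TTCCTC.
Csf2rb2 (chr15:78305672-78305971, minus strand): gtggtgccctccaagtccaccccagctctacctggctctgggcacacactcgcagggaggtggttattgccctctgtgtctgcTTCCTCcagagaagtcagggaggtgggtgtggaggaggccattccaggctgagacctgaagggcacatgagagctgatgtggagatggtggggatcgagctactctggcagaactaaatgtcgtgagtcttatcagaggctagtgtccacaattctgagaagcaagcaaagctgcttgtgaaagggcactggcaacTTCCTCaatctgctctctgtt
Csf3r (chr4:126024409-126024708, plus strand): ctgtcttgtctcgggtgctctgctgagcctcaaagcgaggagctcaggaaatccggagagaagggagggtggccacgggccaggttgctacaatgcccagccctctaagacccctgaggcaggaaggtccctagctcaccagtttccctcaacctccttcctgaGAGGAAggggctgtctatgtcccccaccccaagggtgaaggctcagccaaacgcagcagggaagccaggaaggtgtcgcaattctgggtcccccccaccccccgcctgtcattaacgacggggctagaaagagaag
Csf2ra (chr19:61228369-61228668, minus strand): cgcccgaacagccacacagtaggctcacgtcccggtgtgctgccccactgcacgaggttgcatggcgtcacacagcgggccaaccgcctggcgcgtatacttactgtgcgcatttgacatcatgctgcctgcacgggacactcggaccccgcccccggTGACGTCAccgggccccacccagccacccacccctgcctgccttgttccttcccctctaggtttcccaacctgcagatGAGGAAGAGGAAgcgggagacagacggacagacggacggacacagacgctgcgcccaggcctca
The PU box occurred in all 3, at −86 in Csf3r, at −167 and 29 on the opposite strand in Csf2rb2, and at −14 and −8 as direct neighbours in Csf2ra, counted from the start site to the first base of the match. It was present in 28.3% of 32851 promoters of this length, whereas the CRE, found at −92 of Csf2ra alone, was present in 1.79%. The promoter of Csf1 held neither and carried a kappa B motif, present in 0.411% of promoters, at −154 on the opposite strand. The TATA box searched for (TATAAA) was in 13.6% of promoters and in 0 of these 4. The motifs were chosen with the sequences known and are a description of letters.

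Csf3, which encodes G-CSF (chr11:98701263-98703629, plus strand, protein coding), had the largest difference of the 8 genes between LPS and CTL libraries. The CTL libraries held 0, 0, 2, 0 and 0 counts in tdT− and 0, 0, 0, 1 and 0 counts in tdT+ dCAMs. Under LPS it measured 165, 229.7, 309.6, 122 and 315 CPM in tdT− and 334, 274, 413, 156 and 533 CPM in tdT+ libraries. All CTL libraries were at or under 3 counts, and the lowest LPS library held 1486 counts. Against the highest CTL floor (3 counts in a library), the mean of 228 ± 86.0 CPM in tdT− dCAMs (SD, n = 5) was at least 502-fold higher (adjusted p = 1.96e-09) and the mean of 342 ± 142 CPM in tdT+ dCAMs at least 703-fold higher (adjusted p = 9.27e-10). In LPS mice Csf3 was higher in the tdT+ than in the tdT− library of all 5 mice, with a log2 fold change of 0.58 (95% interval −0.36 to 1.53, adjusted p = 1).

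Per kilobase of transcript the mean of Csf3 under LPS was 162 CPM per kb in tdT− and 242 ± 100.5 CPM per kb in tdT+ libraries (SD, n = 5). In tdT+ LPS libraries this was within the spread of Csf1r (245 ± 37.5), and above Csf3r (75.4 ± 20.4), Csf2ra (72.6 ± 8.71), Csf2rb (32.1 ± 4.15) and Csf2rb2 (20.8 ± 4.57). Csf2ra and Csf3r, the neighbours in that order, did not differ beyond their spread. In tdT− CTL libraries the order of the receptors was Csf1r (469), Csf2ra (80.7), Csf3r (10.8), Csf2rb (10.2) and Csf2rb2 (0.850), with Csf3r and Csf2rb within their spread. In tdT+ CTL libraries Csf1r stood at 1038, Csf2ra at 67.5, Csf3r at 29.7, Csf2rb at 17.6 and Csf2rb2 at 7.55 CPM per kb.

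Csf1, the ligand that most tissues supply to their macrophages (chr3:107741048-107760469, minus strand, protein coding), was low and variable. It measured 6.22, 0, 0.491, 6.77 and 93.6 CPM in tdT− CTL and 5.68, 7.85, 17.8, 15.2 and 0 CPM in tdT+ CTL libraries. The LPS libraries held 11.6, 12.2, 14.3, 12.1 and 23.7 CPM in tdT− and 8.91, 10.2, 18.2, 23.0 and 26.2 CPM in tdT+ dCAMs. The groups overlapped, and the value of tdT− CTL mouse 179, the library with 3993 CPM of fibroblast markers such as Dcn (1777 CPM) and Col1a1 (920.2 CPM), lay far above all others. The log2 fold change under LPS was −0.54 ± 1.26 in tdT− (adjusted p = 0.825) and 0.90 ± 1.27 in tdT+ dCAMs (adjusted p = 0.825). Between the populations it was −1.20 in CTL (adjusted p = 0.639) and 0.23 in LPS mice (adjusted p = 1). Without mouse 179 the LPS value in tdT− dCAMs turned to 2.13 (adjusted p = 0.142). The 5 fibroblast markers summed to 128 to 336 CPM in tdT+ CTL, and under LPS to 56.7 to 333 CPM in tdT− and 88.5 to 313 CPM in tdT+ libraries. They summed to 876 CPM in the tdT− CTL library of mouse 175 and to 336 CPM in the tdT+ CTL library of mouse 179. Both of these libraries held 0 CPM of Csf1, unlike the tdT− CTL library of mouse 179. The fibroblast markers were not examined further. Their part in the level of Csf1 was not tested.

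Il34, the second ligand of CSF1R (chr8:110741829-110805924, minus strand, protein coding), was near the floor. In CTL mice it had 0, 64, 0, 0 and 0 counts in tdT− and 25, 0, 0, 0 and 0 counts in tdT+ libraries. In LPS mice it had 20, 12, 0, 0 and 14 counts in tdT− and 14, 2, 0, 0 and 15 counts in tdT+ libraries. Detection above 3 counts was limited to 7 of 20 libraries, and no fold change is given. A count of 0 allowed for up to 0.170 to 0.487 CPM, depending on the library, for counting error only.

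The surrounding pathway was followed through 34 further genes in 5 lists, of which 32 were tested. In tdT− dCAMs 5 of the 32 changed under LPS, 4 higher and 1 lower, and in tdT+ dCAMs 3 changed, 2 higher and 1 lower, where 11.5% and 5.89% of all genes did. Their median log2 fold change was 0.17 in both. In CTL mice 2 of 32 were higher in tdT+ dCAMs, where 4.28% of all genes changed, and 1 had an LPS effect that differed between the populations, where 1.26% of all genes did. Nothing is read from these small counts against those shares. In LPS mice 0 of 32 changed by edgeR's test, and 2 had an unadjusted p under 0.05 (DESeq2 was not summarised over these lists).

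Of the 9 genes of the JAK-STAT arm, through which the GM-CSF and G-CSF receptors signal, 2 rose in both populations and the others did not pass. Stat3, the transcription factor activated by the G-CSF receptor, rose from 168 ± 108 to 481 ± 63.4 CPM in tdT− (log2 fold change 1.51 ± 0.33, adjusted p = 0.00327) and from 202 ± 38.7 to 509.5 ± 89.1 CPM in tdT+ dCAMs (1.34 ± 0.32, adjusted p = 0.0120). Socs3, a feedback inhibitor of that receptor, rose from 379 ± 149 to 1377 ± 196 CPM in tdT− (1.86 ± 0.27, adjusted p = 6.99e-05) and from 276 ± 128 to 1752 ± 275 CPM in tdT+ dCAMs (2.66 ± 0.28, adjusted p = 1.06e-06). Jak2, Stat5a, Stat5b, Cish and Pim1 were among the 7 that did not pass.

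Of the 11 genes of CSF1R signalling, 1 changed under LPS. Pik3r1, the regulatory subunit of PI3 kinase, rose in tdT− dCAMs from 16.2 ± 9.47 to 79.0 ± 10.7 CPM (2.29 ± 0.41, adjusted p = 0.000672), and in CTL mice it was higher in tdT+ dCAMs, at 60.1 ± 23.3 CPM (1.90 ± 0.41, adjusted p = 0.00802, higher in 5 of 5 mice). The median log2 fold change of these 11 genes was −0.18 in tdT− and −0.15 in tdT+ dCAMs. Tyrobp, named after its values were seen, stayed inside the fold limit at −0.71 ± 0.18 in tdT− (adjusted p = 0.0106) and −0.67 ± 0.18 in tdT+ dCAMs (adjusted p = 0.0222). Of the 6 transcription factors listed for the Csf1r locus, 0 passed in tdT− dCAMs and 1 fell in tdT+ dCAMs by edgeR's test (2 of 6 had an unadjusted p under 0.05 in each population). Runx1, a regulator of Csf1r transcription, fell in tdT+ dCAMs from 167 ± 36.4 to 75.2 ± 15.9 CPM (−1.15 ± 0.30, adjusted p = 0.0215). In tdT− dCAMs its log2 fold change was −0.49 (adjusted p = 0.278), and the difference of the LPS effects did not pass (−0.66, adjusted p = 0.594). Spi1, named after its values were seen, stayed inside the fold limit at 0.73 ± 0.18 in tdT− (adjusted p = 0.00768) and 0.28 ± 0.17 in tdT+ dCAMs (adjusted p = 0.431).

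Among the other proteins that bind IL-34 or cleave CSF1R, Sdc1 (syndecan 1) had 0 counts in all 5 tdT− CTL libraries and 78.2, 41.7, 49.8, 10.4 and 59.8 CPM in the tdT− LPS libraries, a mean at least 105-fold above the floor (adjusted p = 0.000117). It held 3.89, 7.75, 0, 6.39 and 20.2 CPM in tdT+ CTL and 9.43, 3.05, 19.1, 5.004 and 7.66 CPM in tdT+ LPS libraries, which overlapped. Sdc1 passed the test between the populations in CTL mice (adjusted p = 0.00211) and that of the difference of the LPS effects (adjusted p = 0.00388). Ptprz1 passed as lower in tdT− dCAMs (adjusted p = 0.0426) on 1, 1, 1, 7 and 0 counts in CTL against 0 in all LPS libraries, which is too few for a fold. Of the other ligands of the common beta chain, Csf2 (GM-CSF) had 14 counts in tdT− LPS mouse 60, 11 in tdT+ LPS mouse 54 and 1 in tdT+ LPS mouse 56, and 0 elsewhere. Il3 and Il5 did not pass the filter on low counts. Il3ra, the alpha chain that pairs with Csf2rb2, averaged 24.3 ± 16.7 CPM (tdT−) and 18.8 ± 8.95 CPM (tdT+) in CTL mice and 22.8 ± 2.29 CPM (tdT−) and 22.1 ± 3.49 CPM (tdT+) in LPS mice, and did not pass.

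**Figure D5:**
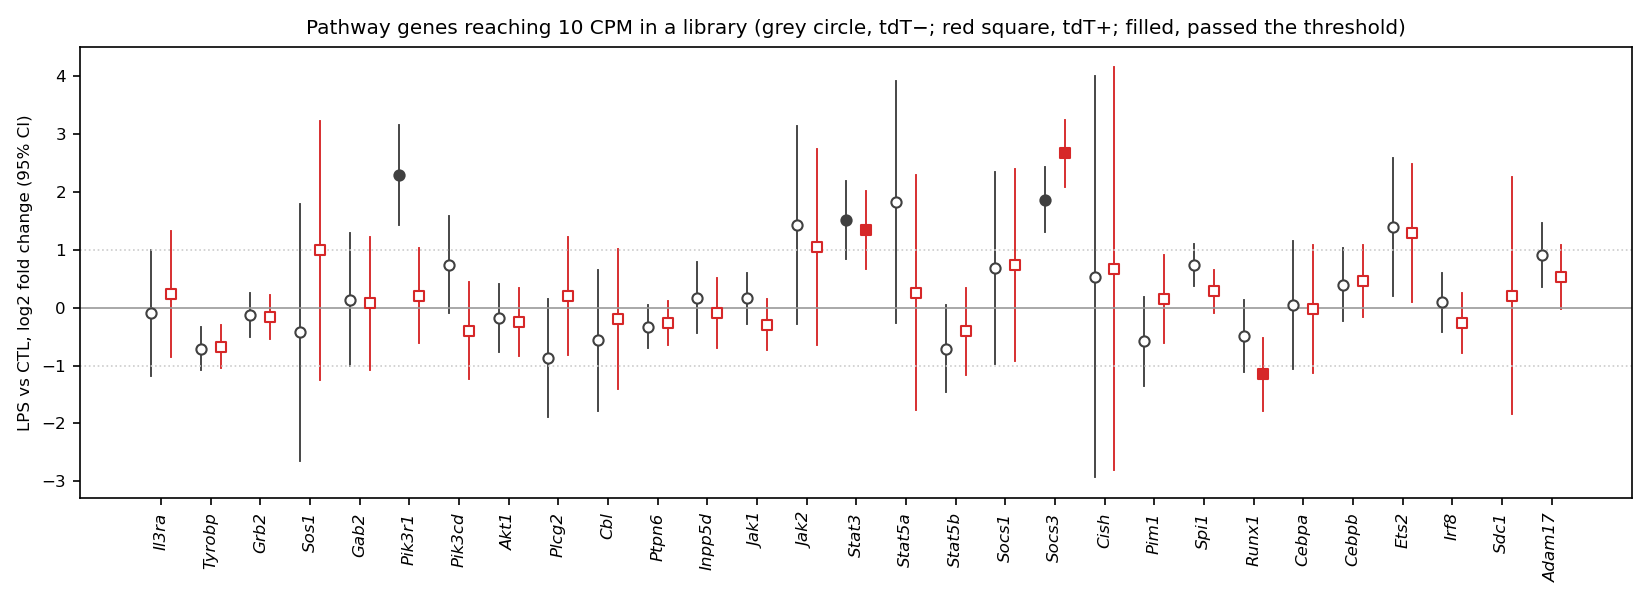
Log2 fold changes under LPS with 95% confidence intervals (vertical axis) of 29 pathway genes that reached 10 CPM in a library, as grey circles for tdT− and red squares for tdT+ dCAMs. Filled symbols passed the threshold, with Stat3 and Socs3 filled in both populations, and the tdT− value of Sdc1 is left out because its CTL libraries were all at 0.

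The genes whose level followed each receptor or ligand most closely were ranked by Pearson r of log2 CPM over the 20 libraries, among 5822 other genes of sufficient level (5823 for Csf1, which was itself below that level). The libraries share groups and depth, and these r are a description. Csf1r was followed most closely by Stab1 (0.98), Timp2 (0.95) and Fam234a (0.94), and Csf2rb by Ttc39b (0.94), Ykt6 (0.94) and Ccr1 (0.93). Csf3r was followed by Usp3 (0.96), Mtx2 (0.95) and Git1 (0.95), Csf2ra by Ecd (0.86) and Rtf2 (0.76) among others, and Csf1 by Eea1 (0.81), Med15 (0.81) and Rrp15 (0.79). Il34, Csf2rb2 and Csf3 were above 3 counts in fewer than 18 libraries and were not ranked.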

How the data were processed

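Bulk RNA-seq libraries of sorted dural macrophages from 10 mice, a tdT+ and a tdT− library per mouse, were analysed from a single table of raw counts. The deposited counts were made by the authors with bcl2fastq 2.20, STAR 2.7.11a and featureCounts 2.0.6, per the submitters' processing notes, which also name DESeq2 1.46.0. The mouse genome build was not settled by the sources used here, so coordinates are those of GRCm38 (GENCODE M21 and RefSeq) and only locate genes, and lengths per kb come from the same models. All values were whole numbers, without molecular identifiers, and 6017650 to 18925908 counts per library set the precision.

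Of 33243 genes, 16632 with a total count of at least 10 were fitted in edgeR 4.0.16 (R 4.3.3) with TMM factors, 1 mean for each of the 4 groups over all 20 libraries, and the quasi-likelihood test. A gene changed at a Benjamini-Hochberg adjusted p under 0.05 with an absolute log2 fold change over 1. Adjustment was over all genes tested in each of the 5 contrasts. Each library came from its own sort of 1 mouse, and the p-values measure the spread between the libraries of a group. The main fit left out the pairing. In comparisons between the populations, and in the difference of the LPS effects, it treated the 2 libraries of a mouse as independent. Alternatives used DESeq2 1.42.0, limma 3.58.1 (voom, with mouse as a block or with quality weights), other scaling factors and filters, the letter in the titles as a term, each mouse left out, and the 10 libraries of a contrast alone. Leaving aside the tdT− CTL libraries of mice 174 and 179, and summing Csf2rb with Csf2rb2, are named in the text, the former chosen after seeing the data. The mouse number pairs the libraries because both came from the same animal, and the correlation of their deviations from the group means was 0.000914 to 0.0333 in CTL and 0.0471 to 0.119 in LPS mice.

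The 8 genes, the pathway lists and the marker lists were chosen with earlier results of these data known. All 8 genes were described, the lists' genes that passed were named, and the 3 genes most like each were taken by Pearson r of log2 CPM with a prior count of 2. A pathway gene left out of the lists and their counts, and a gene among those most alike, are not reported here. Scripts were tested on simulated data.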

Additional observations from a re-analysis of the deposited data

Results flagged for a closer look

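In 6 of 30 combinations of gene and group of 5 libraries, 1 library stood far from the other 4, where the limit used gives about 1 in 20 for normally distributed values, which the groups with most libraries at or near 0 (Il34 and Csf2rb2) do not resemble. For Csf1 these were the tdT− CTL library of mouse 179 with 93.6 CPM (gap to its nearest neighbour 0.928 of the group's range), which also held the most fibroblast marker RNA, and the tdT− LPS library of mouse 61 with 23.7 CPM (0.778). The tdT− CTL library of mouse 175 held 876 CPM of fibroblast markers and 0 CPM of Csf1. Mouse 61 stood out likewise in tdT− LPS libraries for Csf3r, with 316 CPM (0.795). Il34 was found in a single library of each CTL group, tdT− of mouse 175 with 7.03 CPM and tdT+ of mouse 174 with 4.06 CPM. Csf2rb2 had 18.9 CPM in tdT− CTL mouse 175 (0.940) against at most 1.13 CPM in the other 4.

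The LPS effect on Csf1r differed between tdT+ and tdT− dCAMs by −1.09 on the log2 scale (adjusted p = 0.0234, edgeR). The level in tdT+ dCAMs fell from 5992 to 1416 CPM, and in tdT− dCAMs the means were 2709 and 1362 CPM.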

How the results depend on the processing

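Of the alternatives, 582 values for single genes kept their direction and their side of the threshold. In another 22 the gene newly passed, in 20 it was lost and in 21 the sign turned. In tdT− dCAMs the number of the 8 genes that changed under LPS was 4, and 2 when the 10 libraries were fitted alone (3 to 4 with single mice left out). In tdT+ dCAMs it was 2, and 4 with quality weights or in the fit of 10 libraries, where Csf2rb2 (1.64, adjusted p = 0.00248, and 1.46, adjusted p = 0.0148) and Csf3r (1.42, adjusted p = 0.00182, and 1.34, adjusted p = 0.00143) also passed (2 to 3 with single mice left out). Between the populations of CTL mice it was 1, and with mouse as a replicate block 3 in voom and 2 in edgeR (1 to 3 with single mice left out, the 3 without mouse 175). For the difference of the LPS effects it was 1, and 0 without the tdT− CTL libraries of mice 174 and 179 (0 to 2 with single mice left out). In LPS mice it was 0 throughout the leave-one-out fits. The block changed no other call of the 8 genes than those named here and in the results.

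The sign turned mostly for Csf1. Its LPS effect in tdT− dCAMs was 2.45 with the replicate block in voom, 3.41 with quality weights, 2.59 without the 2 libraries and −0.85 to 2.13 with single mice left out. Its CTL difference between the populations was 0.34 with the replicate block in voom, 1.68 with that in edgeR, 2.04 with quality weights, 1.95 without the 2 libraries and −1.89 to 1.79 with single mice left out. Its difference of effects was −0.13, −1.53, −1.81 and −1.72 in the same order and −1.55 to 2.12 with single mice left out. For Csf2ra the LPS effect in tdT− dCAMs was 0.072 with quality weights, 0.093 without the 2 libraries and −0.16 to 0.042 with single mice left out, and the difference of effects was −0.014 without the 2 libraries. In LPS mice the difference between the populations was −0.11 for Csf1r with the replicate block in voom and −0.23 to 0.044 for Csf2rb2 with single mice left out. The causes were not tested.

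Over all genes the calls under LPS numbered 1907 in tdT− dCAMs (891 in the fit of 10 libraries, 4523 with the block in voom) and 979 in tdT+ dCAMs (1545 with DESeq2, 3155 with quality weights, 2262 in the fit of 10 libraries, 1571 with the block). They numbered 712 between the populations of CTL mice (1644 with DESeq2, 1352 without mouse 175, 2245 with the block in voom, 369 with quality weights, 7 in the fit of 10 libraries) and 5 in LPS mice (60, 137 and 39 with DESeq2, quality weights and 10 libraries, 22 with the block). The difference of effects had 209 (744 with DESeq2, 63 to 640 with single mice left out, 619 and 83 with the block in voom and edgeR). That difference was not fitted on 10 libraries. No CTL library held more than 2 counts of Csf3. Il34 exceeded 3 counts in only 1 library of each CTL group, with 64 counts (tdT−) and 25 counts (tdT+). The part of depth in the values of Csf3 and Il34 was not tested.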
